A study of Homo sapiens with 3 samples.

Results

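The leukocyte adhesion ligands of an epithelial surface were taken here as 8 genes: ICAM1, ICAM2, ICAM3, VCAM1, CD58, ALCAM, CD47 and CD44. They were chosen by name, with every probe set that the platform annotation gave their symbol alone, which made 26 of 19065 such probe sets and 8 of 11963 named genes. Transcripts of HT-29 cells, an established line from a human colon adenocarcinoma, were measured in 3 cultures, each on an Affymetrix human expression array. Cells were plated at 50000 per cm2 for 24 h in McCoy's 5A medium with 10% serum under 5% CO2, and all 3 cultures then received 200 U/ml interferon-γ (IFN-γ), a T and NK cell cytokine, for 24 h. The series calls the cultures biological replicates, and all come from this 1 line. Untreated cultures were not analysed here, so the values are levels in treated cells and not responses to IFN-γ.

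These molecules are the surface proteins by which leukocytes hold on to another cell. ICAM1, ICAM2 and ICAM3 are immunoglobulin-fold ligands of the leukocyte integrin LFA-1, and VCAM1 is the ligand of the integrin α4β1. CD58 binds CD2 on T cells, ALCAM binds CD6, CD47 signals to SIRPα on phagocytes, and CD44 binds hyaluronan. In inflamed gut, ICAM1 is known to appear on epithelial cells as well as on vessels, while VCAM1 and ICAM2 are best known from endothelium and ICAM3 from leukocytes.

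ICAM1 and VCAM1 are textbook targets of inflammatory cytokines, and their promoters are shown because ICAM1 was detected in the treated cells and VCAM1 was not. Each line gives the 250 bases before the annotated start, from RefSeq on GRCh38.p14, 5′ to 3′ on the plus strand, with matches to the STAT, NF-κB, IRF and TATA letters in capitals. The ICAM1 stretch is chr19:10270870-10271119 and the VCAM1 stretch is chr1:100719492-100719741.
ICAM1: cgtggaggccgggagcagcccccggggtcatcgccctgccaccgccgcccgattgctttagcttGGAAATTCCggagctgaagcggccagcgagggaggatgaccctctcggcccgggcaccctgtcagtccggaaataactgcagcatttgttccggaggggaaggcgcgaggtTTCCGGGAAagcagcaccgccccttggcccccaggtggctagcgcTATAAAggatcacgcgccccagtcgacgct
VCAM1: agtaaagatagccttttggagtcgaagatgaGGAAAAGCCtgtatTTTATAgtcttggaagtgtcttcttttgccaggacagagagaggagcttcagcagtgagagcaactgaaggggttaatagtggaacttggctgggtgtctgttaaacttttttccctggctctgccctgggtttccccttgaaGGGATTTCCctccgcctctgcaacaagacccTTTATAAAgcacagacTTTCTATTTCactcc
The STAT letters searched were TTCNNNGAA, the NF-κB letters GGNNNTTCC, the IRF letters GAAA, any 2 bases and GAAA again and the TATA letters TATAAA, on both strands. ICAM1 held a palindromic STAT match from 75 to 67 bases before the start, a palindromic NF-κB match from 186 to 178 bases before it and a TATA match at 30. VCAM1 held NF-κB matches at 219 bases before the start on the minus strand and at 62 on the plus strand. It also held an IRF match at 15 on the minus strand, and TATA matches at 205 on the minus strand and, overlapping each other on opposite strands, at 31 and 29. Of 35116 promoters of this length, 6.57% held a STAT match, 17.1% an NF-κB match, 3.02% an IRF match and 10.7% a TATA match. Promoters were found for 7 of the 8 genes, and among the others CD58 alone held any of these matches, an NF-κB match at 81 bases on the minus strand. CD58, ALCAM, CD47, CD44 and 1 of the 3 listed ICAM3 promoters held the GC box GGGCGG, as did ICAM1, against 42.6% of all promoters. A match describes letters in this window only, and sites that depart from the searched letters are not marked.

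The names of the values were checked before any gene was read. Across 4310 genes, 2 probe sets of each gene were compared by mean log2 signal: r was 0.19 under the names as deposited and 0.60 once the names were re-ordered as described under the processing. Those genes are not independent replicates. Moving the re-ordered names by a single row either way gave r = 0.17 in both directions. ICAM1 is given as an example and not as a further check, since CD58, CD47 and CD44 showed no highest array common to their detected probe sets once re-ordered. Under the deposited names its 3 probe sets read 290.5, 177.5 and 292.9, then 238.7, 277.3 and 129.4, then 41.7, 76.5 and 62.4 in replicates 1, 2 and 3, with no common profile. Re-ordered, all 3 were highest in replicate 2 and lowest in replicate 3. Every value below rests on this inferred order.

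A gene was called detected when its signal exceeded a background limit, set per array, in a test on the 3 arrays. The variance in that test combined the gene's own spread with that of other genes at similar levels. The limit came from 88 genes known from unrelated tissues, as their 95th percentile, at a signal of 236.2, 230.6 and 176.3 in replicates 1, 2 and 3. Of the 88, 1 gene, MBP, was itself called. That low count follows from setting the limit on the same genes and does not check it. Of 15 measured housekeeping genes 14 were called, all but POLR2A. The one-sided limma test was adjusted by Benjamini-Hochberg across all genes, or across all probe sets, with a threshold of 0.05. Each probe set has its own brightness, so levels are read against the limit and not between probe sets.

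Of the 8 adhesion ligands, ICAM1, CD58, ALCAM, CD47 and CD44 were detected, and ICAM2, ICAM3 and VCAM1 were not. The share of 5 in 8 (62.5%) stands beside 40.6% of all genes called by the same test, and the median gene of the group lay 1.53 log2 units over the limit against -0.14 over all genes. These gene values are not matched for probe set number, and the brightest probe set stood for its gene. The ligands had 26 probe sets for 8 genes, against 19065 for 11963 genes. The count at an unadjusted p under 0.05 was also 5 of 8. In RNA from whole cultures, fewer cells with a transcript and less of it per cell cannot be told apart. Of the 26 probe sets 15 were detected (57.7%), beside 35.0% of all probe sets.

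**Figure D1:**
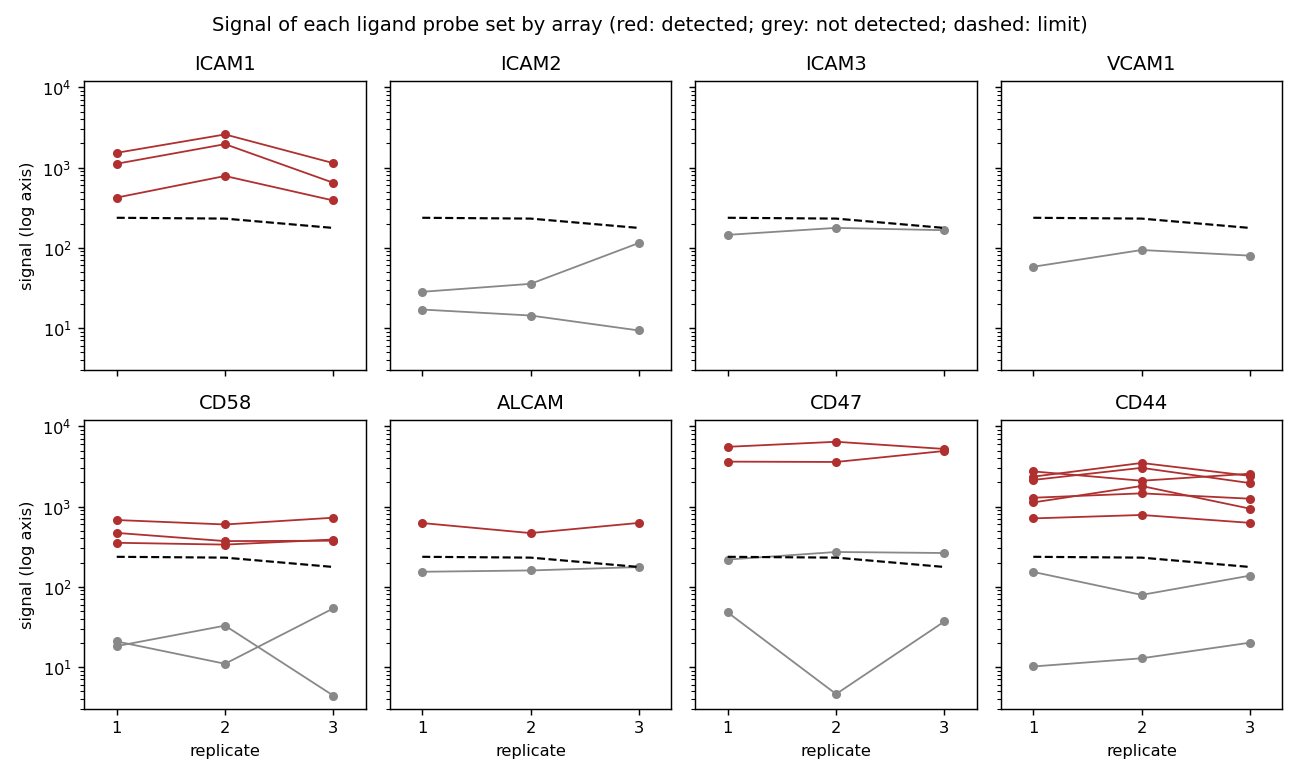
Signal of each of the 26 probe sets on the arrays of replicates 1, 2 and 3 (log axis), by gene, with lines joining the values of a probe set; red marks detected probe sets, grey those not detected, and the dashed line the background limit. The 3 ICAM1 probe sets lie above the limit on every array, and those of ICAM2, ICAM3 and VCAM1 lie below it on every array.

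ICAM1, the inducible LFA-1 ligand, was above the limit on all 3 arrays by each of its 3 probe sets. The probe set 202637_s_at read 1526, 2589 and 1134 in replicates 1, 2 and 3, a mean of 1750 ± 753 (SD, n = 3). The probe set 202638_s_at read 1115, 1958 and 645, and 215485_s_at read 422, 784 and 388. Replicate 2 was the high array and replicate 3 the low array on each of them. The gene lay 2.96 ± 0.22 (SE) log2 units over the limit, with an adjusted p of 1.6e-08 in limma's test. Over 11 alternatives with the re-ordered names the limma adjusted p ranged from 4.5e-44 to 0.00016. The lowest came with signals floored at 32, where the gene lay at the same 2.96 log2 units, so it marks a changed variance estimate and not a higher signal. The lowest limma values given below for CD58, ALCAM, CD47 and CD44 came with that floor too. All 3 probe sets carry the suffix _s_at, which marks a design shared by several transcripts, so ICAM1 has no value without such probe sets. With the limit at the 99th percentile the gene was still called, but 215485_s_at was not (0.45 log2 units over that limit, adjusted p in limma = 0.501).

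ICAM2 and ICAM3, the LFA-1 ligands known from vessels and leukocytes, were below the limit on every array. ICAM2 read 28.2, 35.4 and 114 on its brighter probe set, 204683_at, and 16.9, 14.3 and 9.27 on 213620_s_at. The brighter probe set lay at -2.13 ± 0.49 (SE) log2 units relative to the limit, and its highest value, in replicate 3, was still under that array's limit. ICAM3 was measured by 1 probe set, 204949_at, with 145, 176.7 and 165 (162 ± 16.3, SD, n = 3). It lay closest to the limit of the undetected genes, at -0.40 log2 units with a 95% interval from -0.998 to 0.21. That interval includes the limit, so a level at the limit cannot be told from a level under it with 3 arrays.

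ICAM1, ICAM4, ICAM5 and ICAM3 lie close together on chromosome 19 in the RefSeq annotation. ICAM4, a red cell ligand, read 18.6, 8.43 and 81.1, and ICAM5, a ligand of neurons, read 18.2, 56.5 and 101.4, both under the limit on every array (-3.19 and -2.17 log2 units). These neighbours were named for their position after their values were seen. Within this cluster the test called ICAM1 and none of the other 3.

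VCAM1, the α4β1 ligand, was measured by 1 probe set, 203868_s_at, which read 57.8, 93.6 and 79.6 (77.0 ± 18.0, SD, n = 3). All 3 values were under the limit of their array, and the mean lay at -1.49 ± 0.36 (SE) log2 units relative to it. The 95% interval ran from -2.27 to -0.71, all below the limit. An array value under the limit is not an absence of transcript, since a dim probe set has only a bound.

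CD58, the ligand of CD2, was detected by 3 of its 5 probe sets. The probe set 205173_x_at read 679.5, 598 and 726 (668 ± 64.9, SD, n = 3), 211744_s_at read 469, 371 and 375, and 216942_s_at read 353, 335 and 388. The arrays differed little on these 3, with SDs of 0.11 to 0.19 log2 units. The gene lay 1.65 ± 0.21 (SE) log2 units above the limit (adjusted p in limma = 4.1e-06). The remaining probe sets, 216322_at and 222061_at, read 18.2, 32.7 and 4.37, and 20.8, 10.9 and 53.7, all under the limit. Without suffixed probe sets CD58 therefore lay at -2.96 log2 units, and with the limit at the 99th percentile its limma adjusted p was 0.0521. Over 12 alternatives that kept the re-ordered names it ranged from 4.4e-14 to 1.

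ALCAM, the ligand of CD6, was detected by 1 of its 2 probe sets. The probe set 201952_at read 623, 467 and 625 (572 ± 90.8, SD, n = 3), each above its array's limit, and the gene lay 1.41 ± 0.21 (SE) log2 units over it (limma adjusted p = 2.8e-05). The other, 201951_at, read 154, 160 and 176, under the limit on all 3 arrays and at -0.39 log2 units. Neither name carries a suffix. With the limit at the 99th percentile ALCAM was not called (limma adjusted p = 0.191, the highest of 12 alternatives that ranged upward from 3.2e-10).

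CD47, the signal that restrains phagocytes, was detected by 2 of its 4 probe sets. The probe set 211075_s_at read 5565, 6433 and 5232 (5743 ± 621, SD, n = 3), and 213857_s_at read 3635, 3601 and 4939. The gene lay 4.75 ± 0.24 (SE) log2 units above the limit (adjusted p in limma = 1.5e-09). The probe set 213055_at read 218, 271 and 263 and straddled the limit, above it on 2 of 3 arrays (0.23 log2 units, limma adjusted p = 0.467). The probe set 213856_at read 47.7, 4.58 and 36.9. Without suffixed probe sets CD47 lay at 0.48 log2 units and missed the threshold (limma adjusted p = 0.0652, in a range from 6.8e-66 over 12 alternatives with the re-ordered names).

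CD44, the hyaluronan receptor, was detected by 6 of its 8 probe sets. The probe set 209835_x_at read 2363, 3498 and 2415 (2759 ± 641, SD, n = 3), and 212014_x_at read 2148, 3041 and 1963. The suffix _x_at marks a cross-hybridising design, to which related sequences can contribute. The probe set 212063_at, with no suffix, read 2745, 2100 and 2569 and was itself 3.53 log2 units over the limit. Another 3 detected probe sets, 204489_s_at, 204490_s_at and 210916_s_at, had means of 1291, 1335 and 708. The gene lay 3.67 ± 0.21 (SE) log2 units above the limit (adjusted p in limma = 1.9e-09, in a range from 1.8e-58 to 5.7e-05 over 12 alternatives with the re-ordered names). The probe set 216056_at read 10.1, 12.8 and 20.04, and 217523_at read 153, 79.1 and 137, both under the limit on every array.

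**Figure D2:**
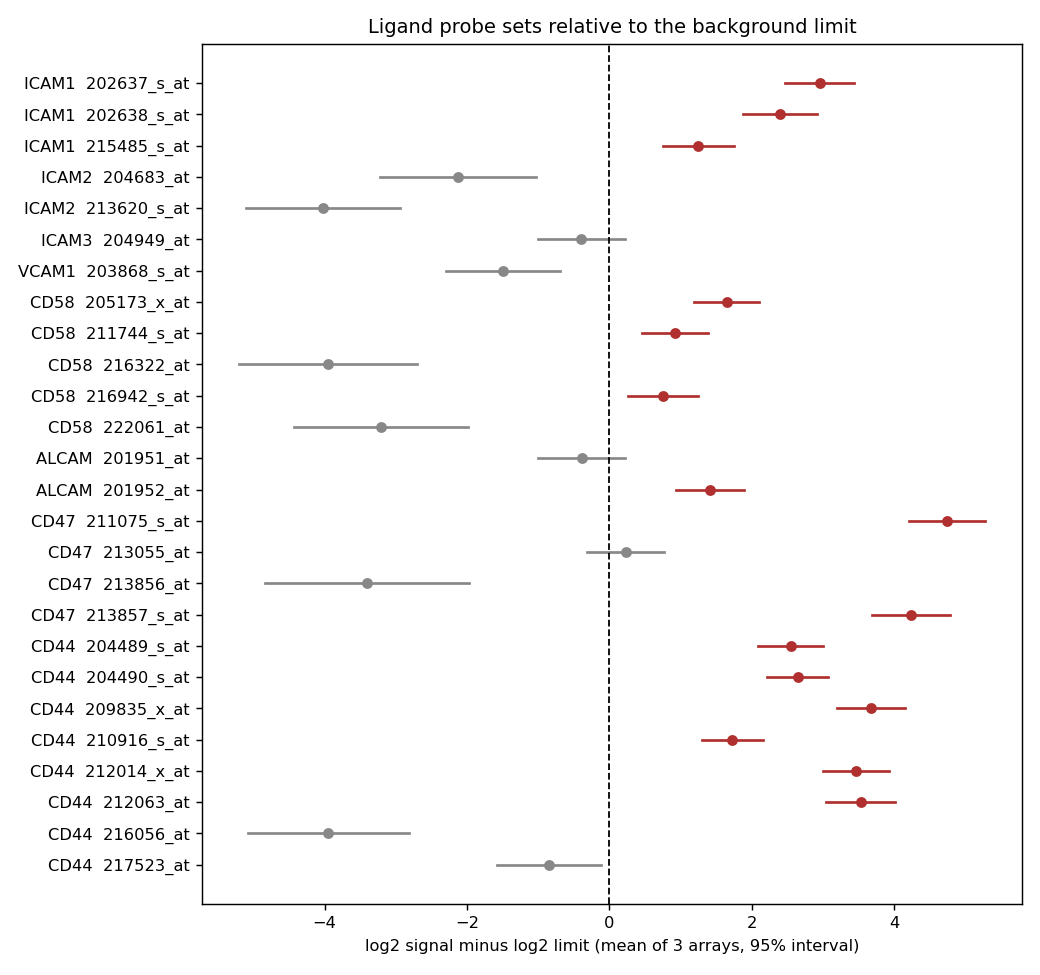
Mean log2 signal minus log2 background limit of the 26 probe sets (x axis; points are means of 3 arrays, bars 95% intervals from limma), red for detected and grey for not detected; the dashed line at 0 is the limit. CD47 spans from -3.41 to 4.75 and CD44 from -3.95 to 3.67 between their own probe sets, and VCAM1 and both ICAM2 probe sets lie left of the line with their whole intervals.

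Probe sets of the same ligand often gave different calls. Of the 6 ligands with several probe sets, CD58, ALCAM, CD47 and CD44 had some but not all of them detected, ICAM1 had all and ICAM2 none. Over all 4310 genes with several probe sets, 31.3% had some, 20.3% had all and 48.3% had none detected. Those shares were not matched for the number of probe sets per gene, which ran from 2 to 8 in these ligands. The calls of the ligands followed the suffix: 13 of their 15 probe sets named _s_at or _x_at were detected, and 2 of their 11 without a suffix (201952_at of ALCAM and 212063_at of CD44). Over all probe sets the shares were 42.9% and 28.0%. Of the unsuffixed probe sets of CD58, CD47 and CD44, genes that a suffixed probe set had called, 1 of 7 was detected, against 47.8% of 1377 such probe sets over all genes. The calls also split within a source sequence: the platform annotation gives the CD47 probe sets 213856_at and 213857_s_at the same sequence record, and likewise the CD58 probe sets 216322_at and 216942_s_at, and in each pair the suffixed probe set was called and the other was under the limit on every array. The transcript part that each probe set covers was not analysed here.

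The arrays of replicates 2 and 3 were the least alike pair (r = 0.925 over all probe sets, against 0.956 and 0.934 for replicate 1 with replicates 2 and 3), so the ligands were set against that difference. ICAM1 was 2.28, 3.03 and 2.02 times higher in replicate 2 than in replicate 3 on 202637_s_at, 202638_s_at and 215485_s_at. These differences lay at the 94.1, 98.3 and 91.4 percentiles of the 6677 detected probe sets, whose median was 0.01 log2 units. With quantile normalization between arrays they were 1.18, 1.52 and 0.89 log2 units. The SDs over the 3 arrays were 0.60, 0.80 and 0.55 log2 units for ICAM1, against a median of 0.29 over detected probe sets and of 0.24 over the 15 detected ones of the ligands. Each of the 3 ICAM1 values was above that of every other detected ligand probe set.

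CD44 split by probe set in the same comparison. Its 5 suffixed detected probe sets were each highest in replicate 2, from 1.17 times replicate 3 on 204490_s_at to 1.92 times on 204489_s_at. The unsuffixed 212063_at went the other way and was lowest in replicate 2, at 0.82 times replicate 3. CD47 split too, with 211075_s_at highest in replicate 2 (1.23 times replicate 3) and 213857_s_at highest in replicate 3 (0.73 times). CD58 and ALCAM were lowest in replicate 2 on each of their 4 detected probe sets, at 0.75 to 0.99 times replicate 3. ICAM1 was the single ligand, of 4 with several detected probe sets, whose probe sets all had the same highest array. Over all genes with several detected probe sets this held for 636 of 1325 (48.0%), and for 107 of the 311 with 3 of them (34.4%). No test compared replicates, since these are 3 cultures of 1 group.

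**Figure D3:**
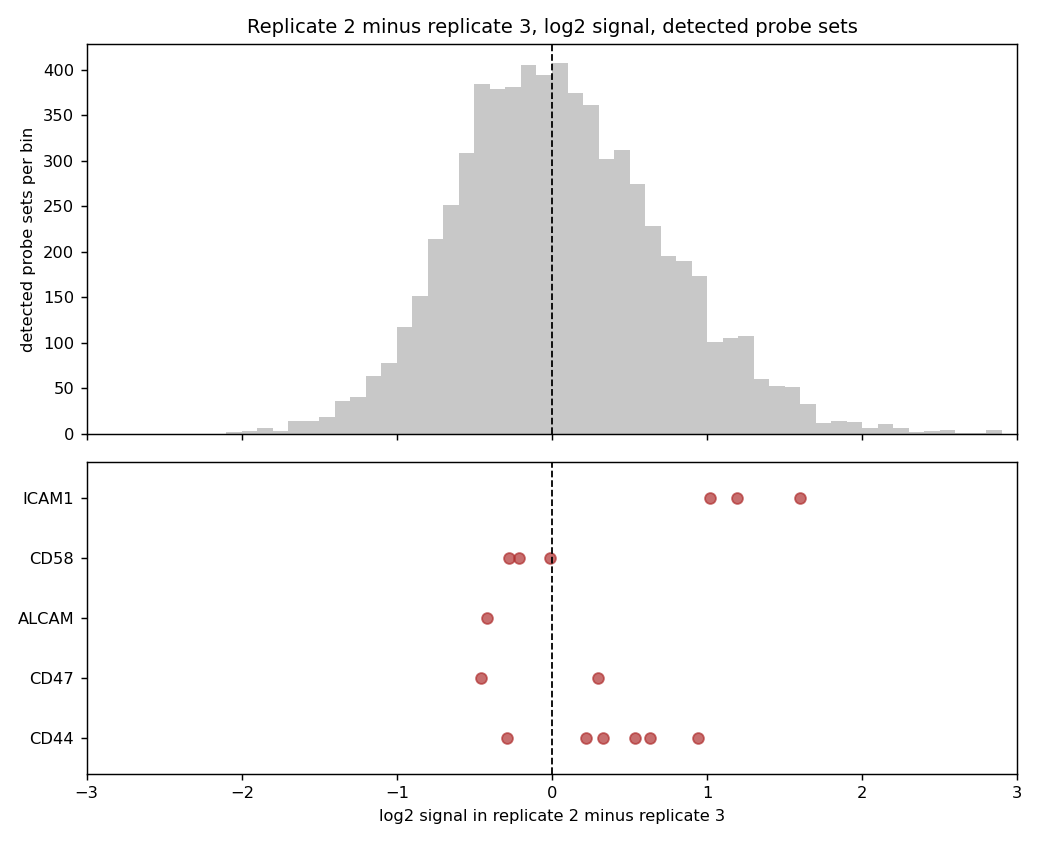
Difference of log2 signal between replicates 2 and 3: the upper panel counts the 6677 detected probe sets in bins of 0.1 log2 units, and the lower panel places the 15 detected probe sets of the ligands, by gene, on the same axis. The 3 ICAM1 points lie between 1.02 and 1.60, and those of CD58 and ALCAM lie at or below -0.01.

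Among regulators known to act upstream of ICAM1, a list of IFN-γ and NF-κB signalling genes with other transcription factors such as SP1, 10 of 12 measured genes were called. IRF1, a transcription factor that IFN-γ induces, read 4375, 6324 and 4557 (4.56 log2 units over the limit). NFKB1, an NF-κB subunit, read 649.6, 828 and 564, and RELA, its partner subunit, read 935, 1186 and 418 (1.66 and 1.86 log2 units over the limit). SOCS1, an inhibitor of JAK kinases, at 267 ± 92.4, and SP1, which binds GC boxes, at 204 ± 14.1 (SD, n = 3 each), were not called, though SOCS1 passed with the limit at the 90th percentile. RELA was highest in replicate 2 and lowest in replicate 3 on its 2 detected probe sets. They were 2.84 and 2.44 times higher in replicate 2 than in replicate 3, at the 97.6 and 95.7 percentiles. NFKB1 was 1.47 and IRF1 1.39 times higher there, at the 77.55 and 74.2 percentiles, and IRF1 was lowest in replicate 1. NFKBIA, the NF-κB inhibitor, named after its values were seen, was 2.04 times higher in replicate 2 than in replicate 3 but highest in replicate 1. Its difference lay at the 91.6 percentile. The other regulators on the list were not compared between replicates. Of all detected probe sets 35.8% were highest in replicate 2, and 3 arrays of 1 group give no pattern by which to match genes. The part of any of these regulators in the ICAM1 values was not tested.

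The leukocyte receptors that bind these ligands were almost all undetected. Of 14 measured counter-receptor genes, 1 was called (7.14%). LFA-1 is the pair of ITGAL, which read 58.8, 89.9 and 99.7, and ITGB2, which read 58.2, 10.0 and 12.2. The integrin chain ITGA4, which binds VCAM1, read 51.2, 36.6 and 27.6. CD2 read 84.9, 139.8 and 46.8, CD6 read 161, 107 and 68.4, and SIRPA, the CD47 receptor, read 126, 133 and 160. All of these lay under the limit on every array. The exception was ITGB1, the β1 integrin chain that epithelial cells use to hold matrix, at 5436, 4078 and 8024 (4.73 log2 units over the limit). That call rested on 1 of 5 ITGB1 probe sets, a suffixed one, and the gene lay at -1.63 log2 units with the median over its probe sets.

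A list of actin linkers was read for proteins that hold CD44 and the ICAMs to the cell cortex. All 8 measured actin linkers were called, among them EZR (ezrin) with 1639, 2274 and 1973, MSN (moesin) with 3861, 3123 and 3057, RDX (radixin) with 684, 728 and 649, and ACTN1 (α-actinin) with 1341, 1274 and 1463. These 4 stayed over the limit on each array. NF2, the tumour suppressor merlin, was over it at 454, 688 and 282. EZR rested on a suffixed probe set and lay at -3.40 log2 units without such probe sets, and NF2 lay at -0.19 with the median over its probe sets. The count of called actin linkers fell to 6 of 8 with the limit at the 99th percentile and with the median over probe sets. Without suffixed probe sets it was 6 of 7. All 7 measured factors that act on CD44 splicing were called too, including the epithelial regulator ESRP1 at 2037, 1714 and 1530 and KHDRBS1 (Sam68) at 3950, 3693 and 4165. HNRNPM, which opposes the epithelial splicing pattern, had 4716 ± 617 (SD, n = 3), and -3.14 log2 units without suffixed probe sets.

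On the list of proteases that cut surface or matrix proteins, γ-secretase subunits and protease inhibitors, 8 of 12 measured genes were called. ADAM10, which sheds CD44, read 2324, 2333 and 3799, and ADAM17, which sheds ICAM1 and VCAM1, read 447, 558 and 376. The membrane protease MMP14 read 359, 362 and 473, but lay at -2.11 log2 units with the median over its probe sets. TIMP1, one of the protease inhibitors on the list, read 1980, 3310.5 and 1699.7. The secreted gelatinase MMP9 read 210.5, 283 and 249.5, above the limit on 2 of 3 arrays, and was not called (limma adjusted p = 0.46). It passed with the limit at the 90th percentile (0.0107) and with the median over probe sets (0.00633), in limma's test. ADAM17 and MMP14 were not called with the limit at the 99th percentile, and the same held for NF2 among the actin linkers.

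On the list of genes that make, bind or degrade hyaluronan, with other CD44 ligands, 2 of 9 measured genes were called. The synthase HAS2 read 5.59, 5.32 and 4.89, and the lymphatic hyaluronan receptor LYVE1 read 37.3, 27.6 and 115.8. SPP1 (osteopontin), another CD44 ligand, read 80.4, 98.7 and 34.6. HMMR, a hyaluronan-binding protein of the mitotic spindle, was called at 1631, 1362 and 2560. HYAL2, a hyaluronidase, read 338, 501 and 205 and passed narrowly (limma adjusted p = 0.0291). HYAL2 was not called without replicate 1 (0.102) or without replicate 2 (0.322).

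Other adhesion molecules were called for 4 of 19 measured genes. NECTIN2 and PVR, ligands of the receptor CD226 on T and NK cells, read 779, 1067 and 605, and 392, 932 and 682. CD99, used by leukocytes crossing a vessel wall, read 170, 124 and 73.7 and was under the limit on every array. The vessel molecules SELE (E-selectin), with 27.2, 34.8 and 7.96, MADCAM1, the gut homing ligand, with 137, 68.6 and 41.1, and PECAM1, with 99.96, 167 and 157, were also under it.

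**Figure D4:**
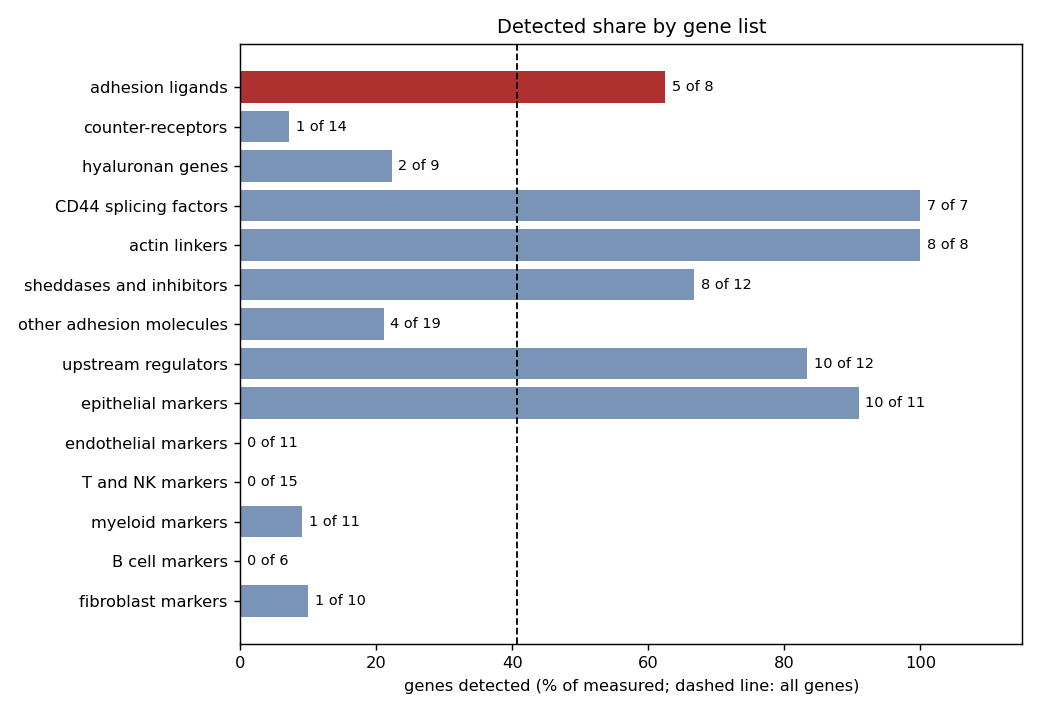
Share of measured genes detected in each gene list (bars from 0, in percent; the count stands beside each bar), with the adhesion ligands in red and a dashed line at the share over all genes, 40.6%. The ligands stand at 62.5%, the counter-receptors at 7.14% and the actin linkers and CD44 splicing factors at 100%.

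Epithelial markers were present and those of other cell types were nearly all under the limit. Of 11 measured epithelial markers 10 were called, with EPCAM at 7928, 6195 and 12703 and CDH1 (E-cadherin) at 4487, 4681 and 6528. KRT18, a simple-epithelium keratin, had 25153 ± 4754 (SD, n = 3). The intestinal cadherin CDH17 was the exception, at 14.3 ± 3.35 (SD, n = 3). Limma called 0 of 11 endothelial, 0 of 15 T and NK cell and 0 of 6 B cell markers, and 0 of each also passed at an unadjusted p under 0.05. CDH5, VWF, CD3D, CD3E and MS4A1 were among them, all under the limit on every array, as were the myeloid markers CD14, CSF1R and TYROBP. The summed signal of the endothelial list was 645, 895 and 845 and that of the T and NK list 944, 1418 and 792 in replicates 1, 2 and 3. Of 11 myeloid markers LYZ alone was called, at 6777, 6612 and 14391; lysozyme is also made by gut epithelium. Of 10 fibroblast markers COL1A1 alone was called, at 378 ± 175 (SD, n = 3), and it was not called without replicate 1 (limma adjusted p = 0.129) or replicate 2 (0.202), while COL1A2, DCN and PDGFRB were not called.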

How the data were processed

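Array signals of 3 cultures were analysed. The authors made them with the MAS5 method in Expression Console 1.1, per the submitters' processing notes, and deposited a linear intensity for each probe set. Without the outer 2% of values every array averaged 500.3, so a common scaling had been applied, and medians were 137, 144 and 141. Its target value and the detection calls are not given in the sources used here.

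Names appeared displaced against the values, and their order was inferred. After 6 empty rows were dropped, values in file order were named as 15 unnamed control values, the 100 lowest-numbered probe sets of the main series, 493 numbered below that series, 21622 others and 47 unnamed control values, so 62 control probe sets were not used. This moved the ligands' probe sets by 487 or 488 rows. Gene names came from the platform annotation, which gave 19065 probe sets 1 symbol, 1043 several and 2107 none, and only the first kind was named. Promoter sequences came from RefSeq.

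Log2 signal, without a pseudocount, minus the log2 limit was fitted by an intercept-only model, with limma 3.58.1 under R 4.3.3 and a trend of variance on level. The brightest probe set by mean log2 stood for its gene. The p-values leave out the error of the limit itself, and having 3 arrays limits the precision. The test script was tested on simulated data. Outside the ligands, the leading genes of each list were named, and also every called or uncalled gene of a list where at most 3 were called or not called. ICAM4, ICAM5 and NFKBIA were named after their values were seen. The ligands and the lists were chosen with earlier results of these data known, so list counts are descriptions. Alternatives tried were the deposited names, scaling, limit, floor, variance prior, probe set choice and each replicate left out.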

Additional observations from a re-analysis of the deposited data

How the results depend on the processing

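The names mattered most. Under the deposited names 354 genes and 313 probe sets were detected (246 genes shared with the 4858 of the inferred order), with 0 ligands and 0 of their probe sets, 0 counter-receptors, hyaluronan genes, actin linkers, protease-list genes, other adhesion molecules, myeloid or fibroblast markers, 2 splicing factors, 2 regulators and 3 epithelial markers, and a median replicate SD of 0.52 for the ligands' probe sets. Log2 values over the limit then turned to -3.87 for ICAM1, -1.61 for CD58, -2.40 for CD47 and -2.71 for CD44. By probe set they were -3.87 for 202637_s_at, -4.14 for 202638_s_at, -5.95 for 215485_s_at, -1.61 for 205173_x_at, -6.36 for 211744_s_at, -8.22 for 216942_s_at, -2.01 for 201952_at, -3.30 for 211075_s_at, -7.87 for 213857_s_at, -4.03 for 204489_s_at, -2.71 for 204490_s_at, -5.39 for 209835_x_at, -8.99 for 210916_s_at, -6.65 for 212014_x_at and -6.32 for 212063_at. For other genes they were -4.73 for ACTN1, -2.20 for ADAM10, -2.89 for ADAM17, -3.61 for COL1A1, -2.04 for ESRP1, -4.34 for EZR, -3.50 for HMMR, -7.23 for HYAL2, -0.43 for IRF1, -1.40 for ITGB1, -0.29 for KHDRBS1, -4.93 for KRT18, -5.27 for LYZ, -4.84 for MMP14, -4.27 for MSN, -7.61 for NECTIN2, -2.37 for NF2, -2.43 for NFKB1, -0.89 for PVR, -7.19 for RDX, -3.24 for RELA and -1.02 for TIMP1. With the limit at the 99th percentile 3029 genes and 3908 probe sets were detected, with 3 ligands, 1 hyaluronan gene, 5 protease-list genes and 0 fibroblast markers, and 216942_s_at, COL1A1 and HYAL2 turned to -0.044, -0.099 and -0.18, while the probe sets 215485_s_at of ICAM1, 205173_x_at and 211744_s_at of CD58 and 201952_at of ALCAM, and the genes CD58, ALCAM, ADAM17, MMP14, NF2, PVR, NFKBIA and MBP lost their calls. Without suffixed probe sets 2893 of 8369 genes (34.6%) and 2 of 6 ligands, ALCAM and CD44, were detected. The lists were shorter in that setting. Calls were made for 0 of 11 counter-receptors, 1 of 2 hyaluronan genes, 3 of 5 splicing factors and 6 of 8 regulators. They were made for 6 of 7 epithelial, 0 of 9 myeloid and 0 of 5 fibroblast markers. In the same setting CD58, EZR, HNRNPM and ITGB1 turned to -2.96, -3.40, -3.14 and -1.83. With the median over probe sets 0 counter-receptors and 0 fibroblast markers were called, and COL1A1, ITGB1, MBP, MMP14 and NF2 turned to -1.66, -1.63, -0.63, -2.11 and -0.19. Without the variance trend 1 hyaluronan gene and 0 fibroblast markers were called. Leaving out a replicate gave 1 to 2 hyaluronan genes and 0 to 1 fibroblast markers. Quantile normalization and each replicate left out kept the 5 ligand calls. Scaling by the median kept them too but could not change them, since each limit was set from the same scaled values. The floor of 32 and the limits at the 90th percentile and over every probe set also kept them. Those settings say little about the calls, since the floor lies under every called signal and both limits were lower on each array. The causes of these changes were not tested. No paired analysis was possible because the series has 1 group. How far a signal lay over its array's background limit sets what can be called.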
